A study of Mus musculus with 10 samples.

Results

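The 10 genes described here, Pf4, Ppbp, Itga2b, Gp1bb, Gp9, Gp5, Treml1, Rap1b, Fli1 and Mef2c, are genes of megakaryocytes and platelets, taken by symbol from the 55573 genes of each count table. RNA of bone marrow hematopoietic stem and progenitor cells (HSPCs), the cells from which blood is renewed, was sequenced from C57BL/6 mice aged 16 weeks. All mice had received 500 cGy of total body radiation, and the series' text places the profiles at 6 weeks after it. Mice of the EGF group received EGF (epidermal growth factor, which signals through EGFR) under the skin and gave 5 libraries, and another 5 libraries came from mice given saline by the same route. The irradiation is shared by both groups, so no value here compares irradiated with unirradiated cells. Nothing in the labels ties a library to 1 mouse, so the spread behind each p-value is that between libraries and may be technical. In bulk RNA, fewer cells of a type and less RNA per cell cannot be told apart.

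Megakaryocytes are the large marrow cells that shed platelets. They arise from stem and progenitor cells under the hormone thrombopoietin and under transcription factors that include GATA1, RUNX1 and FLI1. Platelets catch on injured vessels through the GPIb-IX-V receptor for von Willebrand factor, and aggregate through the integrin of Itga2b (CD41) and Itgb3, which the small GTPase RAP1B switches on; their granules release the chemokines PF4 and PPBP. Fli1, Rap1b and Mef2c are transcribed in many blood cells. The other 7 genes are called lineage-restricted below, although Itga2b is also transcribed in early progenitors.

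None of the 8 genes that had enough counts to test was called different between EGF and saline. Mef2c had the smallest p of them, with 4 of 5 EGF libraries above every saline library, and Rap1b lay below every saline library in 4 of 5 EGF libraries. Levels of the platelet genes differed widely among libraries of 1 group: Pf4 and Itga2b were highest in EGF replicate 2, and Gp9, Gp5 and Treml1 had 0 counts in EGF replicate 5. Ppbp had at most 6 counts and Gp1bb at most 3 in any library, whereas Itga2b, Fli1, Rap1b and Mef2c each had at least 730 counts in every library.

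Total counts were 6805106 to 8370820 per library, and levels are given as CPM, gene counts relative to library totals scaled by the TMM method. EGF replicate 5 stood apart, with a count in 12731 genes against 18734 to 20046 in the other libraries. Of 4812 genes that averaged 10 to 100 counts in the other 9 libraries, 37.8% had 0 counts in EGF replicate 5. For the other libraries the same share was between 0.782% and 2.12%. The fold change of each tested member is therefore given with and without it. The HSPC markers summed to 1502 to 1706 CPM in EGF libraries, against 1372 to 1535 CPM in saline libraries (10 of 10 markers matched), and Procr, with 0 counts in EGF replicate 5, was the only one absent from a library.

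**Figure D1:**
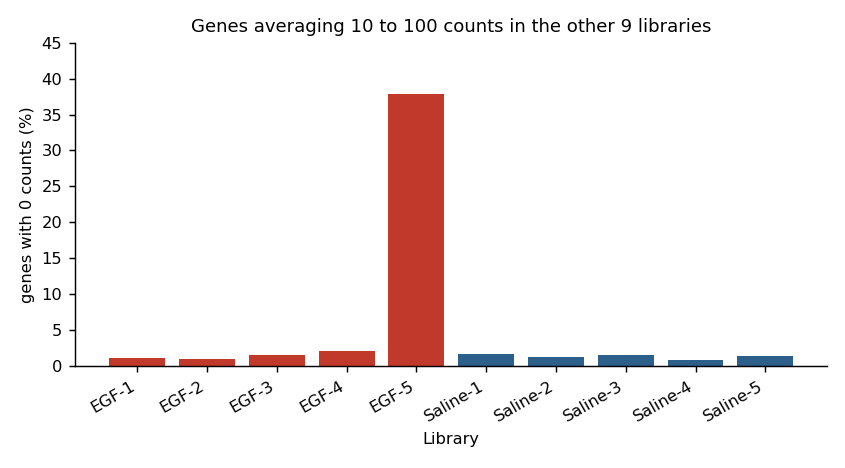
Share of genes with 0 counts in each library (y axis, percent), among genes that average 10 to 100 counts in the other 9 libraries; red bars are EGF and blue bars saline libraries. EGF replicate 5 reached 37.8%, and no other library exceeded 2.12%.

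Both chemokine genes of the alpha granule lie side by side on chromosome 5 (GRCm38), Pf4 from 90772435 to 90773383 and Ppbp from 90768518 to 90770063, on the plus strand. PF4, platelet factor 4, binds heparin, and PPBP is the precursor of a neutrophil chemoattractant. Their promoter windows, from 250 bases before to 50 after the start (RefSeq, build GRCm38.p6, plus strand), are shown because the genes are neighbours. Capitals mark 6-base matches to a GATA form (AGATAA or TGATAA) or an ETS form (CGGAAG or AGGAAG) on either strand; the forms of a family differ in their first base, and no matches overlapped in these windows.
Pf4 (chr5:90772185-90772484): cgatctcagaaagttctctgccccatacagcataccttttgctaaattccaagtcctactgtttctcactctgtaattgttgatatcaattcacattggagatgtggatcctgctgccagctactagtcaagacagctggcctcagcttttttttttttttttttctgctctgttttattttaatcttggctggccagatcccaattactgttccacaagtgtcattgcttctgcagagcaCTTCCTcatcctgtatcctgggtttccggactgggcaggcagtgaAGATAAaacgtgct
Ppbp (chr5:90768268-90768567): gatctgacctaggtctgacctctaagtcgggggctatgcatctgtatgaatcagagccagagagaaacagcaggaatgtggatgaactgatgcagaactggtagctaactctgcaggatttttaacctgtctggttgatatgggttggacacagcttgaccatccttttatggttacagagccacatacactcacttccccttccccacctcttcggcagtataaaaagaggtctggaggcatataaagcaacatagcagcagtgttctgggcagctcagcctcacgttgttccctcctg
The Pf4 window held 1 GATA match, at position 37 after the start, and 1 ETS match on the other strand at position -9, and the Ppbp window held neither. Over the windows of all genes, 18.6% held a GATA match and 46.5% an ETS match. Any part of these matches in the counts of Pf4 and Ppbp was not tested.

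Pf4 was at 12.5, 32.1, 14.8, 9.67 and 16.1 CPM in EGF replicates 1 to 5, against 11.9, 13.7, 9.51, 12.4 and 13.1 CPM in saline replicates 1 to 5. EGF replicates 2, 3 and 5 lay above all saline libraries, EGF replicates 1 and 4 within their range, and EGF replicate 2, with 249 counts, stood well above the rest. The mean was 17.0 ± 8.75 CPM in EGF libraries, against 12.1 ± 1.62 CPM in saline libraries (SD, n = 5 each), a log2 fold change of 0.49 (SE 0.31; adjusted p = 0.606 by edgeR's quasi-likelihood test over all genes). It was 0.13 (SE 0.23) without EGF replicate 2, and 0.51 (SE 0.28) without EGF replicate 5. Ppbp had 0, 2, 6, 0 and 0 counts in EGF replicates 1 to 5, and 3, 2, 6, 0 and 1 counts in saline replicates 1 to 5. It did not pass the filter on low counts and was not tested. Per kilobase of exon, Pf4 was at 23.6 ± 12.1 CPM in EGF libraries, against 16.8 ± 2.25 CPM in saline libraries, while Ppbp was at 0.206 ± 0.343 CPM in EGF libraries, against 0.275 ± 0.251 CPM in saline libraries (SD, n = 5 each).

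The GPIb-IX-V receptor is built from the products of Gp1ba, Gp1bb, Gp9 and Gp5, of which Gp1ba carries the binding site for von Willebrand factor. Gp9 lies on chromosome 6 from 87778072 to 87779768 (plus strand), and Gp5 on chromosome 16 from 30307685 to 30310779 (minus strand). Their windows are given because both are receptor genes among the tested members. Both genes had 0 counts in 1 library and counts in every other. The windows come from the reference genome and do not describe any 1 library.
Gp9 (chr6:87777820-87778119, plus strand): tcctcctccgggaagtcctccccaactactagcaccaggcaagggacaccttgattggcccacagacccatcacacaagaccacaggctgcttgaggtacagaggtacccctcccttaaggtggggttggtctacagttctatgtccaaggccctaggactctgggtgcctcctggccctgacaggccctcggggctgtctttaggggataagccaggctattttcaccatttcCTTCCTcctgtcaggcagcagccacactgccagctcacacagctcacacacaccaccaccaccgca
Gp5 (chr16:30310732-30311031, minus strand): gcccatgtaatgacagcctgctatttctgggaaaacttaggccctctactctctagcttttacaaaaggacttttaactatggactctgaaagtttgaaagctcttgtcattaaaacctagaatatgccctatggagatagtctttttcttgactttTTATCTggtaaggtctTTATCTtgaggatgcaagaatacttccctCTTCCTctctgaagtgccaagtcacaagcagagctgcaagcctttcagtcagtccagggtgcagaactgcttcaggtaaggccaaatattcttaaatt
The Gp5 window held 2 GATA matches and 1 ETS match, all on the strand opposite to the one printed, and the Gp9 window held 1 ETS match, at position -16 on the other strand.

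Gp9 was at 3.26, 3.86, 5.42, 1.53 and 0 CPM in EGF replicates 1 to 5, and at 5.20, 2.98, 2.61, 3.90 and 7.34 CPM in saline replicates 1 to 5. EGF replicates 4 and 5 lay below all saline libraries and the other 3 within their range. The log2 fold change was -0.64 (SE 0.74; edgeR adjusted p = 0.765), and -0.33 (SE 0.38) without EGF replicate 5. Gp5, whose product is cleaved from the platelet surface by thrombin, was at 5.39, 13.5, 4.99, 6.72 and 0 CPM in EGF replicates 1 to 5, and at 9.90, 9.08, 10.6, 5.64 and 5.07 CPM in saline replicates 1 to 5. For Gp5 the highest and the lowest of all 10 libraries were both EGF libraries. The log2 fold change was -0.39 (SE 0.75; edgeR adjusted p = 0.855), -0.08 (SE 0.32) without EGF replicate 5 and -0.91 (SE 0.80) without EGF replicate 2. Limma-voom without weights gave -1.41 (SE 0.92) for Gp9 and -1.40 (SE 0.99) for Gp5, each with an adjusted p of 0.581. With quality weights, limma-voom gave -0.30 (SE 0.38) for Gp9 and -0.13 (SE 0.34) for Gp5. A count of 0 in EGF replicate 5 allows up to 0.420 CPM (3 counts, counting error only), which is below every other library for Gp9, Gp5 and Gp1ba. In that library 7 of the 10 genes of the wider pathway list that averaged 10 to 100 counts elsewhere were at 0, where 37.8% of all 4812 genes in that count range were at 0. The 7 were Gp9, Gp5, Gp1ba, Treml1, Gng11, Ptgir and F2rl2.

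Gp1bb, on chromosome 16 from 18620317 to 18622403 (minus strand), had 0 counts in all 5 EGF libraries and 0, 0, 3, 0 and 0 counts in saline replicates 1 to 5. Its receptor partners were all sampled: Gp1ba, for instance, was at 3.38 ± 1.90 CPM in EGF libraries, against 4.83 ± 0.845 CPM in saline libraries (SD, n = 5 each), and its EGF mean was 4.22 CPM without EGF replicate 5. Exons of other genes on the same strand cover 92.9% of the exonic bases of Gp1bb in GENCODE release M21: Sept5, a septin gene, covers 91.1% and Gm49601 41.5%. Over all 10 libraries Sept5 had 7 counts and Gm49601 had 1. No other member has an exonic base shared with another annotated gene. A read over these bases cannot be given to 1 gene. How such reads were counted is not stated in the labels, and its part in the low Gp1bb count was not tested.

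**Figure D2:**
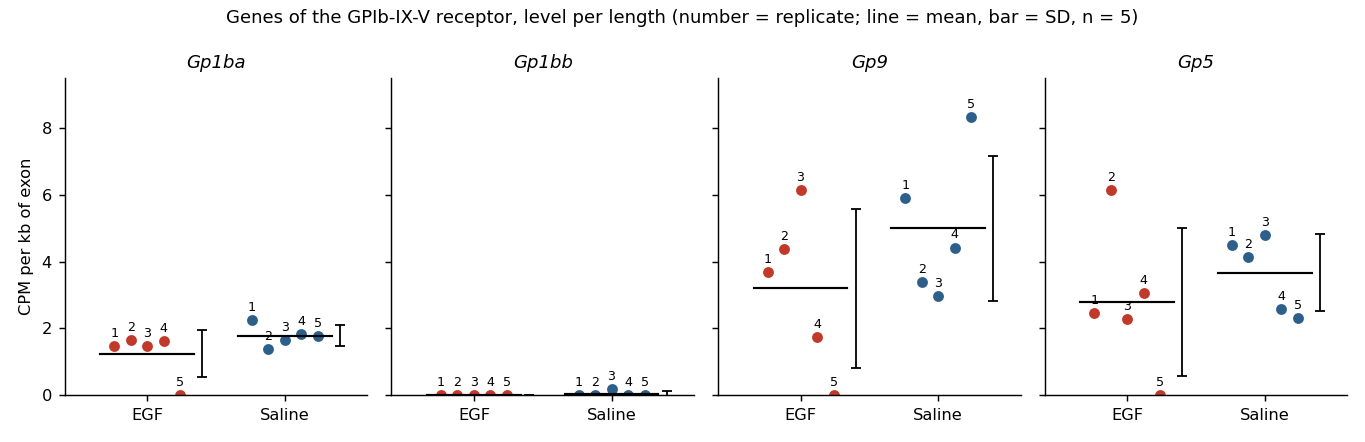
Level of the 4 genes of the GPIb-IX-V receptor in CPM per kilobase of exon (y axis), with EGF libraries (red) left of saline libraries (blue); numbers are replicates, lines means and bars SD (n = 5). Gp1bb lies at or near 0 in every library, and the other 3 genes are at 0 in EGF replicate 5 only.

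Itga2b, on chromosome 11 from 102453297 to 102470122 (minus strand), encodes the alpha chain of the platelet fibrinogen receptor and had the most counts of the lineage-restricted members. Its window, with 2 ETS matches on the printed strand at positions -125 and -43, is given beside those of Pf4, Gp9 and Gp5.
Itga2b (chr11:102469834-102470133, minus strand): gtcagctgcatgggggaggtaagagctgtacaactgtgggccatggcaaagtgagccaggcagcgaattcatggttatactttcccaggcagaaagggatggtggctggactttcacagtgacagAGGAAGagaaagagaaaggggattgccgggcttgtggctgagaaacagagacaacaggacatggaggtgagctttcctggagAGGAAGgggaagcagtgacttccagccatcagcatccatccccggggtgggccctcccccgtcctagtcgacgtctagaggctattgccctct
An ETS match was present in 9 of 11 member windows (81.8%) and in 46.5% of 32851 windows of all genes. With Mef2c counted by its first window only, it was present in 7 of 9 (77.8%). Among windows of the wider list of megakaryocyte and platelet genes it was present in 37 of 62 (59.7%). A GATA match was present in 2 of 11 (18.2%) and in 18.6% of all windows. RefSeq windows were found for 9 of 10 members, with 3 for Mef2c and none for Fli1. These are matches of letters only and show no binding.

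Itga2b was at 92.5, 163, 131, 114 and 131 CPM in EGF replicates 1 to 5, and at 156, 112, 97.9, 98.1 and 103 CPM in saline replicates 1 to 5. The groups overlapped throughout, with EGF replicate 2 and saline replicate 1 standing above the others of their groups. The mean was 126 ± 25.7 CPM in EGF libraries, against 113 ± 24.5 CPM in saline libraries (SD, n = 5 each), a log2 fold change of 0.16 (SE 0.17; edgeR adjusted p = 0.747). It was 0.14 (SE 0.16) without EGF replicate 5, 0.30 without saline replicate 1, 0.05 without EGF replicate 2 and -0.011 with EGF replicates 2 and 5 both left out. Itgb3, the beta chain, was at 32.8 ± 7.58 CPM in EGF libraries, against 28.4 ± 5.26 CPM in saline libraries (SD, n = 5 each; log2 fold change 0.21, SE 0.19). Per kilobase of exon Itga2b was at 17.0 to 29.8 CPM and Itgb3 at 3.57 to 6.81 CPM in the EGF libraries, and at 18.0 to 28.6 and 4.08 to 5.82 CPM in the saline libraries.

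Rap1b, on chromosome 10 from 117813871 to 117846035 (minus strand), encodes the GTPase that turns the platelet integrin to its binding state. It was at 151, 201, 147, 137 and 135 CPM in EGF replicates 1 to 5, and at 191, 173, 189, 172 and 183 CPM in saline replicates 1 to 5. EGF replicate 2 lay above every saline library and the other 4 EGF libraries below every one. The mean was 154 ± 27.1 CPM in EGF libraries, against 181 ± 8.92 CPM in saline libraries (SD, n = 5 each), a log2 fold change of -0.24 (SE 0.11; unadjusted p = 0.0551 and adjusted p = 0.552 by edgeR). Without EGF replicate 2 it was -0.35 (SE 0.08; edgeR adjusted p = 0.350, in a range over all alternatives of 0.0683 to 0.833), and -0.19 (SE 0.10) without EGF replicate 5. The close relative Rap1a was at 68.9 ± 23.5 CPM in EGF libraries, against 60.8 ± 7.85 CPM in saline libraries (SD, n = 5 each), with EGF replicate 5 highest at 111 CPM. Without that library the EGF mean of Rap1a was 58.5 CPM, below the saline mean. No annotated transcript of another gene, Rap1a included, matched Rap1b at 95% identity over 100 bases.

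Treml1, on chromosome 17 from 48359916 to 48367176 (plus strand), encodes a receptor of the alpha-granule membrane that appears on activated platelets. It had 6, 22, 10, 15 and 0 counts in EGF replicates 1 to 5, and 17, 19, 18, 4 and 4 counts in saline replicates 1 to 5. Both groups held low libraries, saline replicates 4 and 5 and EGF replicates 1 and 5. The log2 fold change was -0.20 (SE 0.78; edgeR adjusted p = 0.928) with all libraries and 0.10 (SE 0.52) without EGF replicate 5, so its sign is not set by these data.

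Fli1, an ETS-family transcription factor of megakaryocytes, endothelium and stem cells, lies on chromosome 9 from 32422204 to 32542861 (minus strand). It was at 146, 155, 145, 123 and 137 CPM in EGF replicates 1 to 5, and at 168, 168, 166, 157 and 142 CPM in saline replicates 1 to 5. EGF replicates 4 and 5 lay below all saline libraries, and the other 3 within the range that saline replicate 5 widens downward. The mean was 141 ± 11.99 CPM in EGF libraries, against 160 ± 11.4 CPM in saline libraries (SD, n = 5 each), a log2 fold change of -0.19 (SE 0.08; unadjusted p = 0.0478 and adjusted p = 0.552 by edgeR). It was -0.18 (SE 0.08) without EGF replicate 5 and between -0.23 and -0.14 with any 1 library left out.

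Mef2c, on chromosome 13 from 83504034 to 83667080 (plus strand), encodes a MADS-box transcription factor used in megakaryocytes and also in lymphoid and myeloid progenitors. It was at 315, 297, 355, 309 and 386 CPM in EGF replicates 1 to 5, and at 254, 304, 257, 247 and 278 CPM in saline replicates 1 to 5. The groups overlapped through 1 library of each, EGF replicate 2 and saline replicate 2. The mean was 332 ± 37.1 CPM in EGF libraries, against 268 ± 23.1 CPM in saline libraries (SD, n = 5 each), a log2 fold change of 0.31 (SE 0.09; unadjusted p = 0.00704 and adjusted p = 0.552 by edgeR). Mef2c stood at rank 128 of 12874 genes by p. Without EGF replicate 5, in which it was highest, the log2 fold change was 0.25 (SE 0.07), and the adjusted p over all alternatives ran from 0.108 to 0.833.

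**Figure D3:**
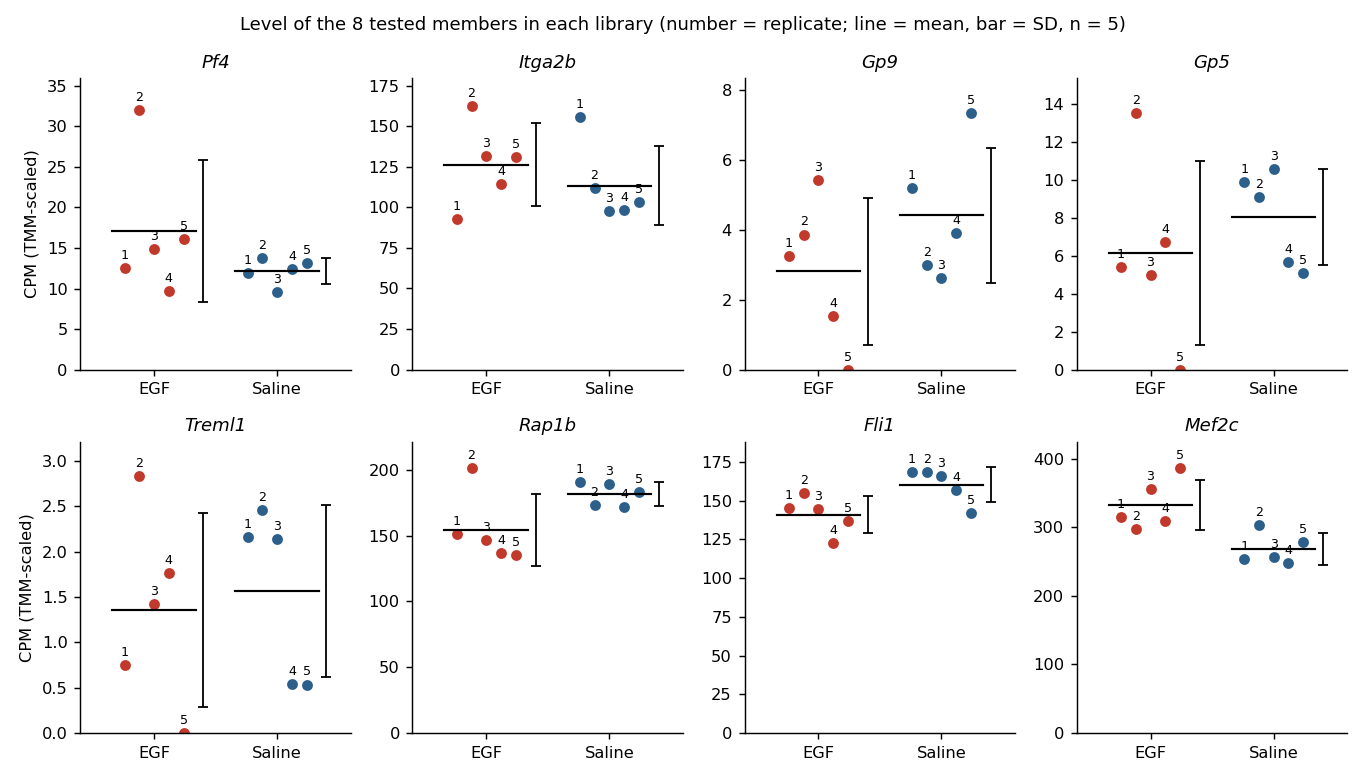
TMM-scaled CPM (y axes, each from 0) of the 8 tested members, with EGF libraries (red) left of saline libraries (blue); numbers are replicates, lines means and bars SD (n = 5). No gene separates the groups completely; Mef2c has 4 of 5 EGF libraries above the saline range, and Rap1b has 4 of 5 below it.

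Of the 10 members, 8 passed the filter on low counts and 2, Ppbp and Gp1bb, did not. By edgeR with Benjamini-Hochberg adjustment over 12874 genes, 0 members were called in either direction, where 0.00777% of all genes were called (1 gene, higher). At an unadjusted p under 0.05, Mef2c was higher and Fli1 lower, where 8.87% of all genes passed. DESeq2 also called 0 members, where it called 0.162% of all genes, and limma-voom with quality weights called 0, where it called 0.0932%. Without EGF replicate 5 edgeR again called 0 members, where 0.0611% of all genes were called, and at an unadjusted p under 0.05 Mef2c was again higher and Fli1 lower, where 8.38% of all genes were higher and 7.39% lower. The unadjusted p of Fli1 was 0.0765 by DESeq2, 0.0782 by limma-voom with quality weights and 0.0707 by edgeR with no filter, so its place under 0.05 depended on the fit. That of Mef2c was 0.00640, 0.00353 and 0.0102 in the same 3 fits. Rap1b, at 0.0551 with all libraries, had an unadjusted p of 0.000856 by edgeR without EGF replicate 2. The median log2 fold change of the 8 tested members was -0.19 (3 above 0), and 0.01 without EGF replicate 5 (4 above 0). The groups overlapped for every member, where 3.27% of all genes tested did not overlap. The coefficient of variation among the tested members ran from 8.51% (Fli1) to 79.3% (Gp5) in EGF libraries, and from 4.92% (Rap1b) to 60.6% (Treml1) in saline libraries.

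**Figure D4:**
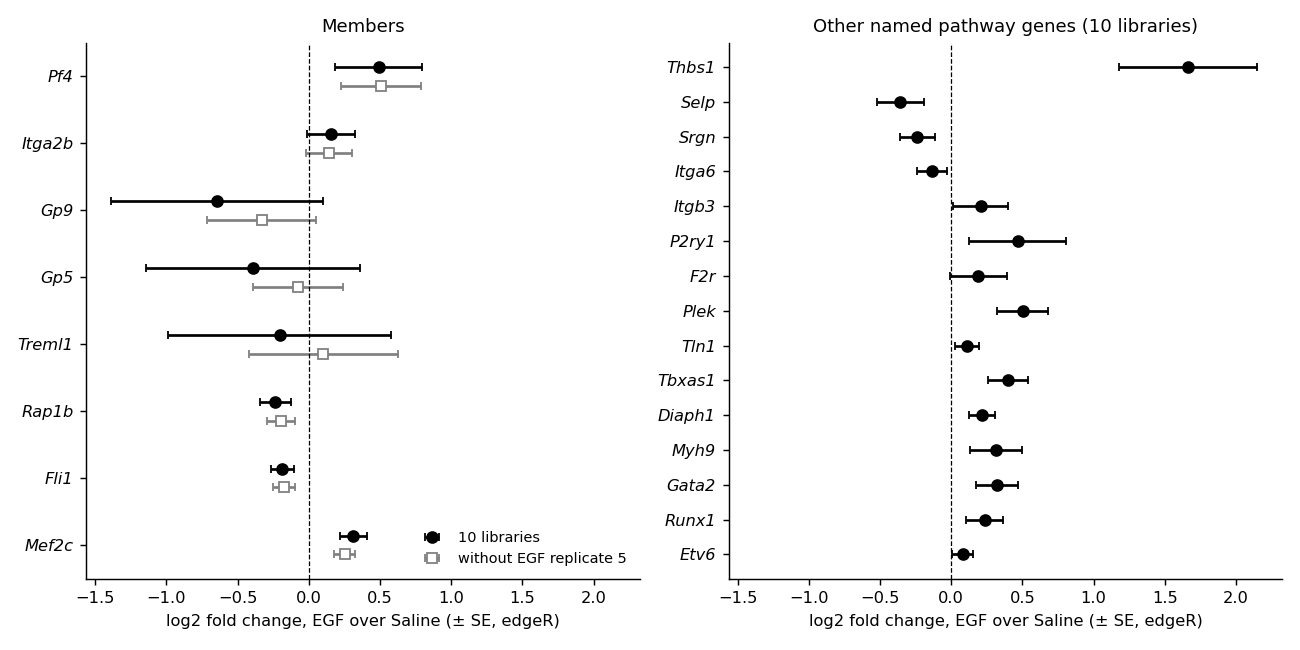
Log2 fold change of EGF over saline with its SE (x axis, edgeR) for the 8 tested members (left; filled circles with 10 libraries, open squares without EGF replicate 5) and for the other named pathway genes (right, 10 libraries). Gp9, Gp5 and Treml1 have SEs of 0.74 to 0.78 with all libraries and 0.32 to 0.52 without EGF replicate 5.

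Within the EGF group, EGF replicate 2 was the highest EGF library for 4 of the 5 that were tested, Pf4, Itga2b, Gp5 and Treml1, while for Gp9 it was EGF replicate 3. Among the saline libraries no single one led: replicate 1 was highest for Itga2b, replicate 2 for Pf4 and Treml1, replicate 3 for Gp5 and replicate 5 for Gp9. The 7 lineage-restricted genes summed to 114, 215, 159, 134 and 147 CPM in EGF replicates 1 to 5, against 186, 140, 124, 121 and 129 CPM in saline replicates 1 to 5; Itga2b gives most of the counts in each sum. EGF replicate 2 also had the highest sum of all libraries over 12 erythroid markers (56.4 to 147 CPM in EGF libraries, against 54.8 to 119 CPM in saline libraries). The same held for the sum over 5 mast cell and basophil markers (164 to 359 CPM in EGF libraries, against 169 to 279 CPM in saline libraries). The marker lists of other cell types, each taken as a sum, were highest in other libraries. B and plasma cell markers were highest in saline replicate 1, HSPC markers in EGF replicate 1 and late neutrophil markers in EGF replicate 5. Macrophage, primary granule, T and NK cell, and endothelial and stromal markers were highest in saline replicate 4. All 12 erythroid markers matched a gene, and 5 of them, both alpha-globin genes included, had 0 counts in EGF replicate 5; all 5 mast cell and basophil markers were counted in every library. Their part in the platelet gene levels was not tested.

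**Figure D5:**
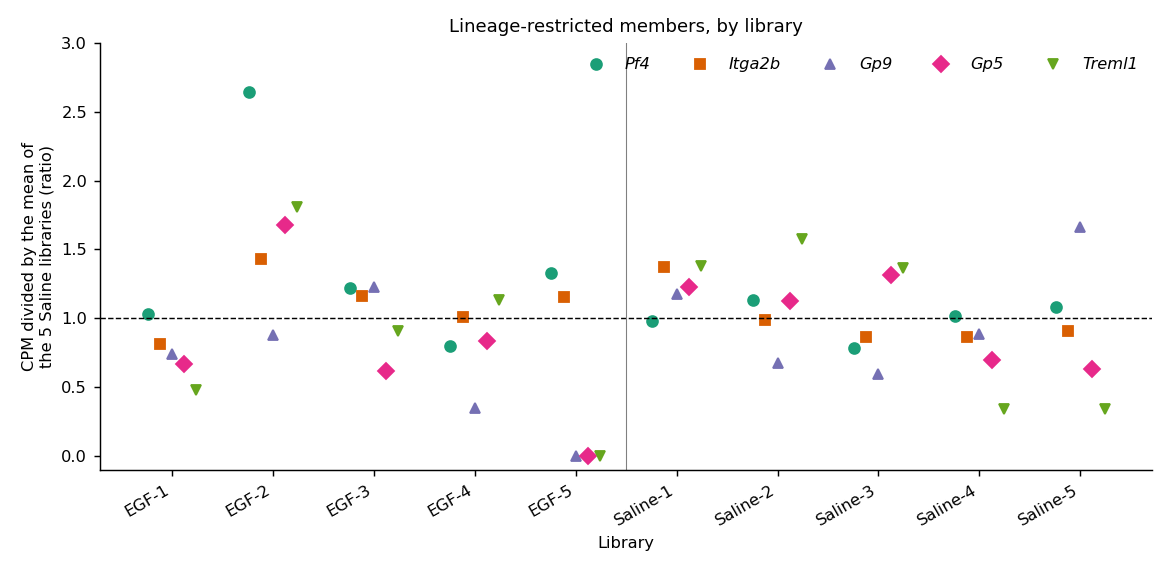
CPM of the 5 tested lineage-restricted members in each library, divided by the mean of the 5 saline libraries (y axis, ratio; dashed line at 1), with EGF libraries left of the vertical line. Pf4, Itga2b, Gp5 and Treml1 are highest in EGF replicate 2, and Gp9, Gp5 and Treml1 are at 0 in EGF replicate 5.

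The wider list of megakaryocyte and platelet genes holds 63 genes, the 10 members included. Of these, 55 were tested by edgeR and by limma-voom with quality weights, and all 63 were fitted by DESeq2, which was run without the filter on low counts. In each of these fits 0 genes of the list were called in either direction. At an unadjusted p under 0.05 edgeR gave 5 higher and 1 lower, where 6.14% and 2.73% of all genes were higher and lower. The median log2 fold change was 0.06 over the list and -0.01 over all genes tested, and 32 of the 55 were above 0 against 48.5% of all genes. Without EGF replicate 5 the median was 0.07, with 10 higher and 3 lower at an unadjusted p under 0.05, where 8.38% and 7.39% of all genes were higher and lower. These counts are a description, since the list was chosen with results of these data known.

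Among granule genes, 7 of 8 were tested (median 0.17, and 0.06 without EGF replicate 5). Thbs1, the matrix protein thrombospondin-1, was at 8.53, 4.89, 15.6, 22.4 and 25.2 CPM in EGF replicates 1 to 5, and at 2.16, 4.67, 5.23, 8.33 and 3.74 CPM in saline replicates 1 to 5. Without EGF replicate 5, in which Thbs1 was highest, its EGF mean was 12.8 CPM, against 4.83 CPM in saline libraries. Its log2 fold change was 1.66 (SE 0.49; edgeR adjusted p = 0.552), with 4 of 5 EGF libraries above all saline libraries; it is also made by macrophages and stromal cells. Selp, the leukocyte-binding selectin of the granule membrane, was at 72.1, 71.3, 74.0, 68.7 and 38.0 CPM in EGF replicates 1 to 5, and at 91.1, 81.8, 76.7, 77.6 and 88.0 CPM in saline replicates 1 to 5. It was the only tested gene of the list (1 of 55, 1.82%) whose groups did not overlap, where 1.65% of all genes had all EGF libraries below all saline libraries; the log2 fold change was -0.36 (SE 0.17; edgeR adjusted p = 0.552). EGF replicate 5 was lowest, and without it the EGF mean was 71.5 CPM, against 83.0 CPM in saline libraries. Genes on the other strand share 14.1% of its exonic bases. Vwf, von Willebrand factor itself, was at 50.9 ± 19.4 CPM in EGF libraries, against 56.9 ± 26.4 CPM in saline libraries (SD, n = 5 each), and Srgn, the granule proteoglycan serglycin, at 285 ± 51.5 CPM in EGF libraries, against 336 ± 22.4 CPM in saline libraries (SD, n = 5 each). Without EGF replicate 5 the EGF mean was 47.0 CPM for Vwf and 306 CPM for Srgn.

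Of 12 adhesion receptor genes, 9 were tested (median -0.20, and 0.09 without EGF replicate 5). Itga6, a chain of laminin-binding integrins, was at 129 ± 12.02 CPM in EGF libraries, against 141 ± 19.7 CPM in saline libraries (SD, n = 5 each). The collagen receptor Gp6 had at most 2 counts in any library, and the podoplanin receptor Clec1b at most 6. Of 9 receptors for soluble agonists, 8 were tested (median 0.12, and 0.11 without EGF replicate 5). The thrombin receptor F2r was at 102 ± 23.4 CPM in EGF libraries, against 89.8 ± 22.5 CPM in saline libraries, and the ADP receptor P2ry1 at 17.9 ± 9.56 CPM in EGF libraries, against 13.0 ± 2.27 CPM in saline libraries (SD, n = 5 each). Without EGF replicate 5 the EGF mean was 96.8 CPM for F2r and 14.3 CPM for P2ry1; EGF replicates 1 and 4 lay below all saline libraries for P2ry1, and EGF replicates 2, 3 and 5 above them. Antisense exons share 23.1% of the exonic bases of P2ry1. Another ADP receptor gene, P2ry12, had at most 6 counts in any library. Vwf and Clec1b were added to the named genes after their values were seen, as were Gp1ba, Gp6, Rap1a, P2ry12, Tubb1, Gata1, Gng11, Ptgir and F2rl2.

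All 13 genes of integrin signalling were tested (median 0.07, and 0.06 without EGF replicate 5). Plek, the protein kinase C substrate pleckstrin, was at 198 ± 60.5 CPM in EGF libraries, against 140 ± 17.4 CPM in saline libraries (SD, n = 5 each). Its log2 fold change was 0.50 (SE 0.18, edgeR adjusted p = 0.552). Plek was highest in EGF replicate 5, at 302 CPM, and the other EGF libraries were at 148 to 193 CPM, with a mean of 173 CPM. Tln1, the integrin activator talin, was at 1156 ± 101 CPM in EGF libraries, against 1071 ± 36.8 CPM in saline libraries (SD, n = 5 each), with an EGF mean of 1116 CPM without EGF replicate 5. Among genes of platelet formation and eicosanoids, 6 of 9 were tested (median 0.13, and 0.08 without EGF replicate 5). The thromboxane synthase gene Tbxas1 was at 68.8 ± 7.91 CPM in EGF libraries, against 52.1 ± 9.30 CPM in saline libraries (SD, n = 5 each, log2 fold change 0.40, SE 0.14). Diaph1, a formin that nucleates actin, was at 509 ± 56.5 CPM in EGF libraries, against 438 ± 26.6 CPM in saline libraries (SD, n = 5 each, log2 fold change 0.22, SE 0.09). Both were highest in EGF replicate 5, without which the EGF mean was 66.7 CPM for Tbxas1 and 487 CPM for Diaph1. The non-muscle myosin heavy chain Myh9 reached 3337 CPM in EGF replicate 5, against 1640 to 1861 CPM in the other EGF libraries and 1617 to 1731 CPM with saline. Tubb1, the tubulin of the platelet rim, had at most 12 counts in any library.

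All 12 transcription factor genes were tested (median 0.06 with and without EGF replicate 5). Gata2, of stem cells and early megakaryocyte progenitors, was at 265, 357, 280, 308 and 363 CPM in EGF replicates 1 to 5, and at 338, 270, 232, 210 and 210 CPM in saline replicates 1 to 5 (log2 fold change 0.32, SE 0.15, edgeR adjusted p = 0.552). Without EGF replicate 5 the EGF mean of Gata2 was 302 CPM, against 252 CPM in saline libraries. Runx1 was at 219 ± 44.1 CPM in EGF libraries, against 186 ± 8.16 CPM in saline libraries, and Etv6, a repressor of the ETS family, at 427 ± 8.68 CPM in EGF libraries, against 404 ± 34.8 CPM in saline libraries (SD, n = 5 each). For Runx1, EGF replicate 5 lay below all saline libraries, at 161 CPM. The other EGF libraries lay above all of them, with a mean of 233 CPM. Gata1, the factor of late megakaryocyte and erythroid cells, was at 22.9 ± 11.1 CPM in EGF libraries, against 15.9 ± 2.93 CPM in saline libraries (SD, n = 5 each), with EGF replicates 2 and 5 highest at 28.5 and 39.8 CPM and an EGF mean of 18.7 CPM without EGF replicate 5.

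Levels of different members can be ordered only per length. The length used joins the exons of all annotated transcripts of a gene, so it can exceed the length of an mRNA. Mef2c, for which it was 15715 bases, had the highest mean CPM of the members in both groups before division by length. The order below therefore holds for this length only. In CPM per kilobase of exon, Rap1b was highest, at 53.4 ± 9.41 with EGF and 62.9 ± 3.09 with saline, followed by Fli1 at 40.4 ± 3.44 with EGF and 46.0 ± 3.26 with saline (SD, n = 5 each). Itga2b (23.2 ± 4.72 with EGF and 20.8 ± 4.48 with saline), Pf4 and Mef2c (21.1 ± 2.36 with EGF and 17.0 ± 1.47 with saline) came next and overlapped within their SDs in both groups. Gp9 (3.20 ± 2.38 with EGF and 5.004 ± 2.18 with saline) and Gp5 (2.79 ± 2.21 with EGF and 3.67 ± 1.15 with saline) overlapped likewise. Treml1, at 0.967 ± 0.762 with EGF and 1.12 ± 0.677 with saline, overlapped Gp9 and Gp5 within their SDs in EGF libraries but not in saline libraries, and overlapped Ppbp in both groups. Gp1bb, with 3 counts in all, had the lowest mean in both groups.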

How the data were processed

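The authors deposited raw read counts for every gene, 1 table for each of 10 libraries, which by their whole-number values had not been scaled. RNeasy Micro extraction, rRNA depletion and a Clontech library kit with PCR are recorded in the labels' protocols. The submitters' processing notes name bcl2fastq 2.17, STAR, GRCm38 and mm10; none of the sources used here gives the counting tool, strand setting or sort gate. As deposited, 27 symbols, among them that of Sept5, read as dates or times, and these were restored from GENCODE M21 by identifier.

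Counts were tested with edgeR 4.0.16 (R 4.3.3): filterByExpr (minimum count 10), TMM, and its quasi-likelihood test for EGF over saline, fitted on 10 libraries, with Benjamini-Hochberg adjustment (threshold 0.05). SEs came from the F statistic. On simulated counts 20% of genes changed 1.5-fold, 32% changed 2-fold and 80% changed 4-fold were recovered (50 each of 12496). DESeq2 1.42.0 and limma 3.58.1 were alternatives. Near copies were sought with blastn 2.17.0. Exonic lengths and overlaps came from GENCODE M21. Counts cannot tell PCR copies apart, so floors cover counting error only. Some genes of the lists are not reported here by name. Members and lists were chosen with earlier results of these data known. Beside the members, the text names in each role group the 2 genes with the smallest p and the 1 with the highest mean CPM.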

Additional observations from a re-analysis of the deposited data

Results flagged for a closer look

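In 4 of 19 groups of 5 libraries examined for the members, the highest library stood apart from the rest by more than Dixon's 95% limit of 0.71 of the group's range. Chance flags about 1 group in 20 where groups are independent and normally distributed. The members were counted in the same libraries, so these groups are not independent, and the number of flags cannot be judged against that rate. For Pf4 the library that stood apart was EGF replicate 2, at 32.1 CPM (0.713 of the range). For Rap1b it was the same library, at 201 CPM (0.762 of the range), which put it above all saline libraries while the other 4 EGF libraries lay below them. For Itga2b it was saline replicate 1, at 156 CPM (0.763 of the range). For Gp1bb it was saline replicate 3, at 0.357 CPM, the only library with any count of that gene, which were 3. With the other 4 libraries at 0, any count gives a gap of the whole range, and a count of 0 allows up to 3 counts, so this library is not shown to stand apart.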

How the results depend on the processing

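None of the 21 alternatives, of which the fit with EGF replicates 2 and 5 both left out was added after seeing the data, called a member or a gene of the wider list in either direction. Of 168 recomputed fold changes of the 8 tested members, 164 kept their direction. The other 4 turned: Itga2b to -0.011 with EGF replicates 2 and 5 left out, and Treml1 to 0.19 by limma-voom with quality weights, to 0.01 without saline replicate 2 and to 0.10 without EGF replicate 5; with any 1 library left out, Treml1 lay between -0.65 and 0.10. The lowest adjusted p of any member was 0.0683, for Rap1b with EGF replicates 2 and 5 left out. Over all genes edgeR called 1 higher and 0 lower. The calls were 12 higher and 15 lower by DESeq2, 8 and 4 by limma-voom with quality weights, 0 higher with library size scaling or with EGF replicates 3 and 4 left out, and 17 and 3 with EGF replicates 2 and 5 left out. With any 1 library left out they ranged from 0 to 4 in each direction. Over these alternatives the median of all genes lay between -0.079 and -0.00023 on the log2 scale. With the replicate number as a block 0 genes were called higher; same-numbered libraries did not deviate together (correlations from -0.08 to 0.01), so the numbers were not taken to pair them. For members of few counts (Gp9, Gp5, Treml1), depth and the zeros of EGF replicate 5 limit what can be seen; the cause of the changes between settings was not tested.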
